A study of Mus musculus with 42 samples.

Results

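Triglyceride is assembled in the liver by a short relay of enzymes, and 8 of its genes were followed here: the acyltransferase genes Gpam, Agpat2 and Agpat3, the lipin genes Lpin1, Lpin2 and Lpin3, and the diacylglycerol acyltransferase genes Dgat1 and Dgat2. Each was read from the probe set that carries its symbol alone, and where a gene had several such probe sets the brightest was to be taken. All 8 genes had exactly 1 such probe set. They are 8 of the 17989 genes measured in this way. Every one of them lay above the 95th percentile of the olfactory receptor genes (log2 2.86), a set that the liver is not known to use and that serves as a background level, on 42 of 42 arrays.

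The glycerol-3-phosphate acyltransferases, of which Gpam encodes a mitochondrial form, join the first fatty acid to glycerol-3-phosphate. The acylglycerolphosphate acyltransferases, Agpat2 and Agpat3 among them, add the next one and yield phosphatidate. Lipins remove its phosphate and so make diacylglycerol, which either receives a last fatty acid from Dgat1 or Dgat2 and becomes triglyceride, or leaves for phosphatidylcholine and phosphatidylethanolamine. In the liver this relay fills lipid droplets and supplies very-low-density lipoprotein, and Gpam is a well-known target of the lipogenic transcription factor SREBP-1c.

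The study measured liver RNA of male wild-type mice of the inbred strain C3HeB/FeJ, housed singly and labelled as random fed, on Affymetrix whole-transcript arrays. The high-fat diet (HFD) groups had 8 arrays each, after 7 days (mice aged 15 weeks), 14 days (16 weeks) and 21 days (17 weeks). The control group had 18 arrays from mice of 15 to 17 weeks that ate a low-fat diet (LFD) for up to 21 days. Age and time on the diet thus rose together among the HFD groups, and controls of all ages formed 1 group. The labels number the arrays of a group without naming animals, so each p-value refers to the spread among samples, and some of that spread may be technical. Titles of the 21-day and control arrays carry the word "reanalysis" and those of the 7-day and 14-day arrays do not. If the word marks a batch, diet and batch cannot be told apart at 7 or 14 days against controls, nor can time and batch at 21 days against the other HFD times. At 21 days against controls both groups carry it.

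Values are log2 RMA values as deposited, and the median array value ran from 3.08 to 3.28 over the 42 arrays. The liver markers on the list were far above background (the mean of 6 hepatocyte genes lay between 12.2 and 12.8 on every array). Of 6 measured adipocyte genes, 4 lay above the background percentile, the highest being Plin1 (mean log2 3.39). Adipoq (2.36) and Lep (2.74) did not. Levels of 14 pancreatic acinar genes differed widely within each group: their mean had a lowest, median and highest value of 3.57, 5.34 and 9.46 at 7 days, 3.45, 5.58 and 9.30 at 14 days, 3.40, 4.24 and 6.44 at 21 days, and 3.42, 4.50 and 8.41 in controls. In limma 0 of the 14 passed at any HFD time against controls, and 0 had an unadjusted p under 0.05. For 1 probe set, left out here, values exist on controls 1 to 9 and on none of the other 33 arrays, and the labels give no reason. In bulk tissue, fewer cells of a type and less RNA per cell cannot be told apart.

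Promoter windows of 300 bases were available for 6 of the 8 genes in a RefSeq-derived table (build GRCm38.p6). The windows of the 4 genes that rose in at least 1 comparison are shown, and where a gene had several windows the first is shown. Gpam had 2 windows and Lpin2 had 3. With 1 probe set per gene, the arrays do not show from which window the measured transcripts started. Capitals mark matches, on either strand, to the E-box CACGTG, the sterol element core TCACNCCA, the CCAAT box CCAAT, the GC box GGGCGG, the nuclear receptor unit AGGTCA, or a direct repeat of that unit spaced by 1 base (the DR1 element). These letters were chosen with the sequences in view, a DR1 element contains the single unit, and a match describes letters only. The windows lie at chr19:55127189-55127488 (minus strand) for Gpam, chr10:78351651-78351950 (minus strand) for Agpat3, chr12:16610917-16611216 (minus strand) for Lpin1 and chr17:71183282-71183581 (plus strand) for Lpin2, and each is printed 5′ to 3′ in the direction of transcription.
Gpam: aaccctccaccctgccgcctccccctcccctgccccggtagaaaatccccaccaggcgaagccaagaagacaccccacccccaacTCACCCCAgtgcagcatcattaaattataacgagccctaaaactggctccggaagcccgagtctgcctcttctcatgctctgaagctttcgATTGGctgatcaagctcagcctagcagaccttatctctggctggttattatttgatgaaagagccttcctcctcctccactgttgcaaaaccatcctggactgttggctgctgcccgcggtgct
Agpat3: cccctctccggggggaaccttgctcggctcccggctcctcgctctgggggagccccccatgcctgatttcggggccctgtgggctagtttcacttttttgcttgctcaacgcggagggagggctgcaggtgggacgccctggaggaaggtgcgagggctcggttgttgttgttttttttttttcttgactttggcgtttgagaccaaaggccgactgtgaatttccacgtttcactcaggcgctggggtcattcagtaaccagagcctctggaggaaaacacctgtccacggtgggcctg
Lpin1: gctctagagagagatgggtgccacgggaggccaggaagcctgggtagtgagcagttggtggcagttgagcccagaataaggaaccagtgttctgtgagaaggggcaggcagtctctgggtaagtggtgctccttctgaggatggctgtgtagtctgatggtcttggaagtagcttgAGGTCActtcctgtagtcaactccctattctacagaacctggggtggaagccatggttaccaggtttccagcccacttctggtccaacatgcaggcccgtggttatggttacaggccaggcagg
Lpin2: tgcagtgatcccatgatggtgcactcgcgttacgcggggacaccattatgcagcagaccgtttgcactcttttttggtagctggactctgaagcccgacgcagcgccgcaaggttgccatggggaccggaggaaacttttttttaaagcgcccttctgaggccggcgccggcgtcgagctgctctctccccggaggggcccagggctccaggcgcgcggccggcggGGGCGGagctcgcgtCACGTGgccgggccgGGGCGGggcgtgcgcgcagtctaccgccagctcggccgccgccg

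The Gpam window held 1 match to the sterol element core and 1 CCAAT box. Of all 32851 promoter windows in the table, 4.36% held that core and 37.4% a CCAAT box. In the Lpin1 window the only match was 1 AGGTCA unit, which 16.3% of all windows held. The Lpin2 window had 1 E-box (7.15% of all windows) and 2 GC boxes (35.7% of all windows held at least 1). No letters of the Agpat3 window matched, and the direct repeat, present in 0.04% of all windows, was in none of the 4. Motifs were thus spread unevenly over the 4 windows, and no motif was common to all of them. Genes that were not called had matches too: the Agpat2 window held 3 GC boxes and the first Lpin3 window 1 E-box. Windows not shown differed from the first ones. The second Gpam window had no sterol element core, 1 GC box and 1 AGGTCA unit. For Lpin2, the second window had 1 GC box and the third had 3 CCAAT boxes, and neither had an E-box.

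After 7 days of HFD, 4 of the 8 genes were higher than in controls and 0 were lower. The 4 were Gpam (2.24-fold), Lpin2 (1.99-fold), Lpin1 (1.84-fold) and Agpat3 (1.34-fold). At least 1 gene thus passed at the acylation of glycerol-3-phosphate, at the making of phosphatidate and at its dephosphorylation. Neither gene of the last step passed, and differences between genes or steps were not tested. Across all genes tested, 1.40% passed at 7 days, 1.16% higher and 0.239% lower (limma, Benjamini-Hochberg adjusted p under 0.05 over 17989 genes). After 14 days 1 of the 8 was higher, Gpam, and 0 were lower, against 0.667% of all genes passing (0.506% higher and 0.161% lower). After 21 days 0 of the 8 passed in limma, against 0.700% of all genes (0.445% higher and 0.256% lower). At an unadjusted p under 0.05, 3 of the 8 were higher (Gpam, Agpat3 and Lpin2) and 0 lower, against 6.66% of all genes in either direction. The median log2 change of the 8 genes was 0.26 at 7 days, 0.28 at 14 days and 0.26 at 21 days, beside -0.01, -0.005 and 0.008 over all genes. All 3 comparisons use the same 18 control arrays. The 8 genes were chosen with earlier results of these data known, so their counts beside the shares of all genes are a description.

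**Figure D1:**
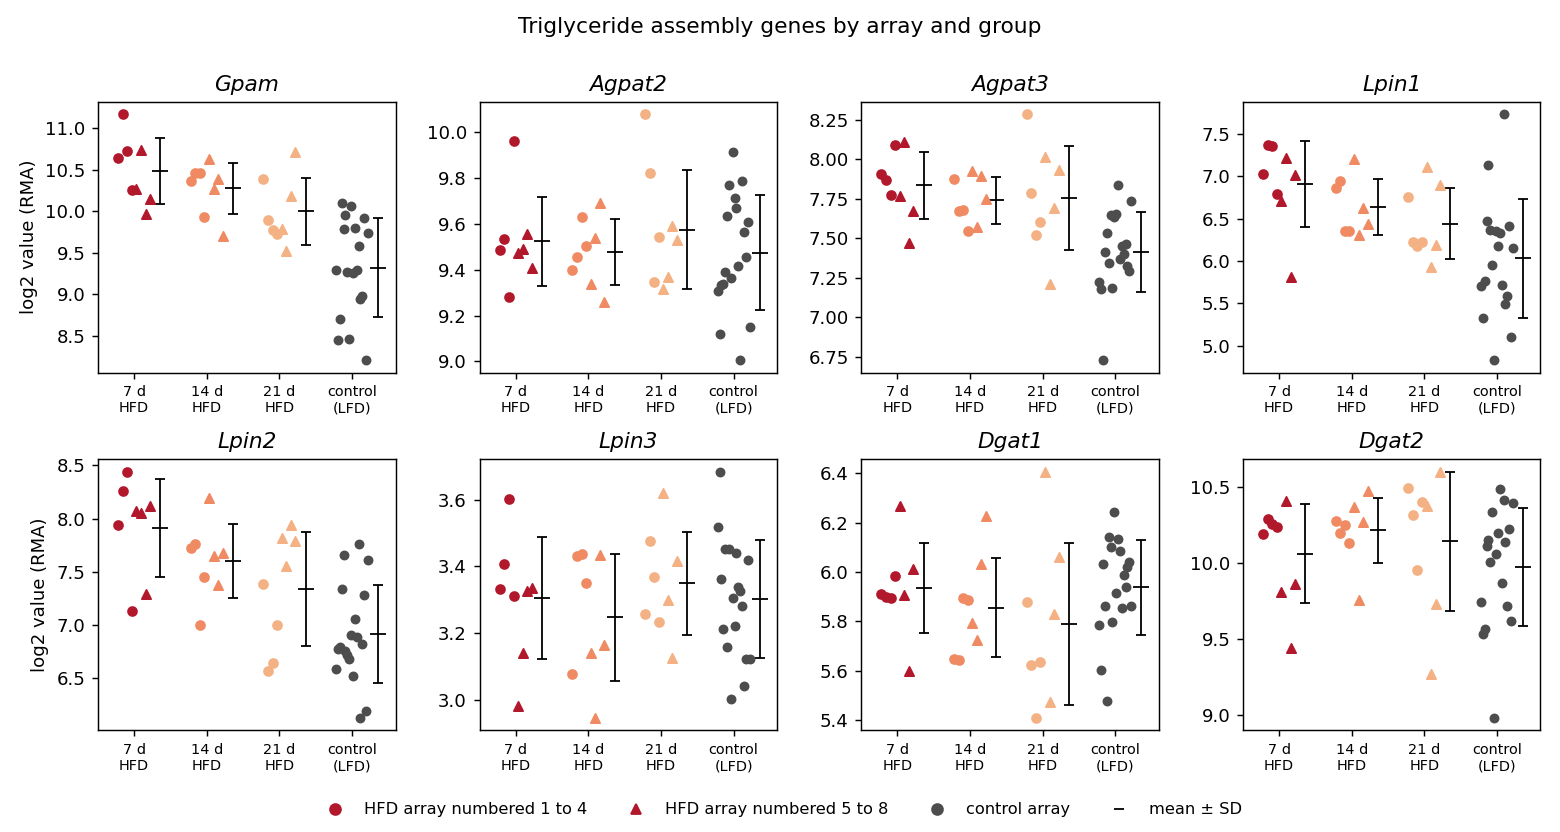
The log2 RMA value of each gene (vertical axis, own scale per panel) on each of the 42 arrays by group (horizontal axis), with HFD arrays numbered 1 to 4 as circles, those numbered 5 to 8 as triangles, controls as grey circles, and the mean with its SD beside each group. Of the 8 arrays at 7 days, 7 lie above all 18 controls for Gpam and 6 for Lpin2, and the HFD and control arrays overlap for Lpin3, Dgat1 and Dgat2.

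Gpam had the largest estimated change of the 8 genes at every HFD time. Its lowest, median and highest log2 values were 9.96, 10.45 and 11.17 at 7 days, 9.70, 10.37 and 10.63 at 14 days, 9.52, 9.84 and 10.71 at 21 days, and 8.21, 9.29 and 10.10 in controls. All 24 HFD arrays lay above the control mean; 7 of 8 arrays at 7 days, 6 of 8 at 14 days and 3 of 8 at 21 days lay above every control, so the groups overlapped in part at each time. The level averaged 10.49 ± 0.40 at 7 days (SD, n = 8), 10.27 ± 0.31 at 14 days (n = 8), 9.997 ± 0.40 at 21 days (n = 8) and 9.32 ± 0.59 in controls (n = 18). The log2 change was 1.16 at 7 days (95% interval 0.77 to 1.55, limma adjusted p = 9.11e-05) and 0.95 at 14 days (0.56 to 1.34, limma adjusted p = 0.00413). At 21 days it was 0.67 (0.28 to 1.06), which did not pass (limma adjusted p = 0.121), although with quantile normalization it was 0.74 and passed (limma adjusted p = 0.0251). Leaving out any 1 array kept the 7-day and 14-day calls, with the log2 change between 1.07 and 1.24 at 7 days and between 0.89 and 1.03 at 14 days. With only the 4 HFD arrays numbered 5 to 8 against the controls, the change at 7 days was 0.95 and the call was lost (limma adjusted p = 0.121). The 14-day call was lost with either set of 4 arrays, at log2 changes of 0.98 for those numbered 1 to 4 (limma adjusted p = 0.121) and 0.92 for those numbered 5 to 8 (limma adjusted p = 0.238).

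Of the acyltransferases of the next step, Agpat3 passed at 7 days and Agpat2 at no time, and the difference between these genes was not tested. Agpat3, which accepts lysophosphatidic acid and other lysophospholipids, had lowest, median and highest log2 values of 7.47, 7.82 and 8.11 at 7 days, 7.55, 7.71 and 7.93 at 14 days, 7.21, 7.74 and 8.29 at 21 days, and 6.73, 7.41 and 7.83 in controls. It was above every control on 4 of 8 arrays at 7 days and on 3 of 8 at each later time, so the groups overlapped in part at every time. Its log2 change was 0.42 at 7 days (95% interval 0.21 to 0.63, SE 0.10, limma adjusted p = 0.0173), 0.33 at 14 days (0.12 to 0.54, limma adjusted p = 0.235) and 0.34 at 21 days (0.14 to 0.55, limma adjusted p = 0.159). The size at the later times was close to that at 7 days, and no difference between times passed. The call at 7 days rested on single arrays: it was lost without the 7-day array numbered 4 (limma adjusted p = 0.0589) or 6 (0.065). It was also lost with quantile normalization (0.33, limma adjusted p = 0.0511), with the HFD arrays numbered 5 to 8 (0.34, limma adjusted p = 0.427) and with the controls numbered 10 to 18 (0.33, limma adjusted p = 0.232). Without the 21-day array numbered 6, the change at 21 days became 0.42 and passed (limma adjusted p = 0.0284).

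Agpat2, the isoform whose loss causes a congenital lipodystrophy in humans, did not pass at any time. Its lowest, median and highest log2 values were 9.28, 9.49 and 9.96 at 7 days, 9.26, 9.48 and 9.69 at 14 days, 9.32, 9.54 and 10.08 at 21 days, and 9.005, 9.44 and 9.91 in controls. HFD and control arrays overlapped almost entirely. The log2 change was 0.05 at 7 days (95% interval -0.14 to 0.24), 0.003 at 14 days (-0.19 to 0.20) and 0.10 at 21 days (-0.09 to 0.29), so a rise as large as that of Gpam at 7 days lies outside all 3 intervals. Limma adjusted p-values were 0.908, 1 and 0.965 at the 3 times in turn.

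Among the lipins, Lpin2 and Lpin1 rose at 7 days and Lpin3 did not pass at any time. Lpin2 encodes a phosphatidate phosphatase that is prominent in liver. Its lowest, median and highest log2 values were 7.13, 8.06 and 8.44 at 7 days, 7.00, 7.66 and 8.19 at 14 days, 6.57, 7.47 and 7.94 at 21 days, and 6.13, 6.81 and 7.76 in controls. On 6 of 8 arrays at 7 days it lay above every control, compared with 1 of 8 at 14 days and 3 of 8 at 21 days. The log2 change was 0.995 at 7 days (95% interval 0.62 to 1.37, SE 0.18, limma adjusted p = 0.000501), 0.69 at 14 days (0.31 to 1.06, limma adjusted p = 0.0776) and 0.42 at 21 days (0.05 to 0.79, limma adjusted p = 0.629). The call at 7 days held without any 1 array (log2 change 0.92 to 1.11) and under all 15 other settings tried. At 14 days the result lay near the threshold: it passed without the control numbered 5 (limma adjusted p = 0.0392), 13 (0.0325) or 18 (0.0432), or without the 14-day array numbered 3 (0.0446).

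At 21 days the Lpin2 arrays separated by their numbers. The 4 arrays numbered 5 to 8 averaged 7.77 and the 4 numbered 1 to 4 averaged 6.90 (log2 difference 0.87, SE 0.24, limma adjusted p = 0.0113), while 21.7% of all genes differed in that comparison, against 1.33% at 7 days and 1.15% at 14 days. What the numbers stand for is not given in the labels. Over all 24 HFD arrays with time in the fit, 22.7% of all genes and 0 of the 8 passed between the number sets. Malat1, a nuclear-retained RNA, averaged 9.13 on arrays numbered 5 to 8 and 6.65 on those numbered 1 to 4 (log2 difference 2.48, limma adjusted p = 4.74e-11). With Malat1 as a covariate, the 7-day calls of Gpam, Agpat3, Lpin1 and Lpin2 held, and its part in the 21-day difference of Lpin2 was not tested. Set against the controls, the arrays numbered 5 to 8 gave a log2 change of 0.86 (limma adjusted p = 0.0293) and those numbered 1 to 4 gave -0.02 (limma adjusted p = 0.981), so the 21-day mean of Lpin2 averages over sets of arrays that differed. At 7 and 14 days its difference between the number sets was -0.06 (limma adjusted p = 0.942) and 0.24 (limma adjusted p = 0.748). Of the other 7 genes, 0 differed between the number sets at any time in limma, and 0 did so at an unadjusted p under 0.05.

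Lpin1, which acts both as a phosphatidate phosphatase and as a coactivator of genes of fatty acid oxidation, was the most variable of the 8 among controls. Its lowest, median and highest log2 values were 5.80, 7.01 and 7.37 at 7 days, 6.31, 6.53 and 7.20 at 14 days, 5.93, 6.23 and 7.10 at 21 days, and 4.83, 6.05 and 7.73 in controls. No HFD array lay above every control, since the control numbered 13 was higher than all of them, while 7 of 8 arrays at 7 days, 8 of 8 at 14 days and 7 of 8 at 21 days lay above the control mean. The log2 change was 0.88 at 7 days (95% interval 0.42 to 1.33, SE 0.23, limma adjusted p = 0.0305), 0.60 at 14 days (0.14 to 1.06, limma adjusted p = 0.502) and 0.41 at 21 days (-0.05 to 0.86, limma adjusted p = 0.842). The call at 7 days was lost without the 7-day array numbered 1 (limma adjusted p = 0.0706), 2 (0.103), 3 (0.0918), 6 (0.0794) or 8 (0.0616). It was also lost with quantile normalization (limma adjusted p = 0.0645), with all probe sets tested (0.0606), with only the compared groups in the fit (0.0861), with HFD arrays 1 to 4 (0.0535) or 5 to 8 (0.575), and with controls 10 to 18 (0.122). Its direction was the same under each of these.

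Lpin3, which encodes a form better known from the intestine, was close to background. Its lowest, median and highest log2 values were 2.98, 3.33 and 3.603 at 7 days, 2.94, 3.26 and 3.44 at 14 days, 3.12, 3.33 and 3.62 at 21 days, and 3.003, 3.31 and 3.69 in controls. The 4 ranges nearly coincided. Its log2 change was 0.001 at 7 days (95% interval -0.15 to 0.16), -0.06 at 14 days (-0.21 to 0.10) and 0.05 at 21 days (-0.11 to 0.20), with limma adjusted p-values of at least 0.987. These intervals bound the signal of a probe set that is near background.

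Neither enzyme of the last step passed at any time. Dgat2, the form tied to newly made fatty acids in liver, had lowest, median and highest log2 values of 9.44, 10.21 and 10.41 at 7 days, 9.76, 10.26 and 10.47 at 14 days, 9.27, 10.34 and 10.60 at 21 days, and 8.98, 10.08 and 10.48 in controls. HFD arrays fell within the control range apart from 2 arrays at 21 days. Its log2 change was 0.09 at 7 days (95% interval -0.21 to 0.39), 0.24 at 14 days (-0.06 to 0.54) and 0.17 at 21 days (-0.13 to 0.47), with limma adjusted p-values of 0.895, 0.941 and 0.956.

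Dgat1, the form better known from the intestine and for fatty acids that come from outside the cell, had lowest, median and highest log2 values of 5.6, 5.91 and 6.27 at 7 days, 5.64, 5.84 and 6.23 at 14 days, 5.41, 5.73 and 6.41 at 21 days, and 5.48, 5.96 and 6.24 in controls. The groups overlapped, with 1 array at 7 days and 1 at 21 days above all controls and 2 at 21 days below them. Its log2 change was -0.003 at 7 days (95% interval -0.19 to 0.19), -0.08 at 14 days (-0.27 to 0.11) and -0.15 at 21 days (-0.34 to 0.04), with limma adjusted p-values of 0.996, 0.98 and 0.887.

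**Figure D2:**
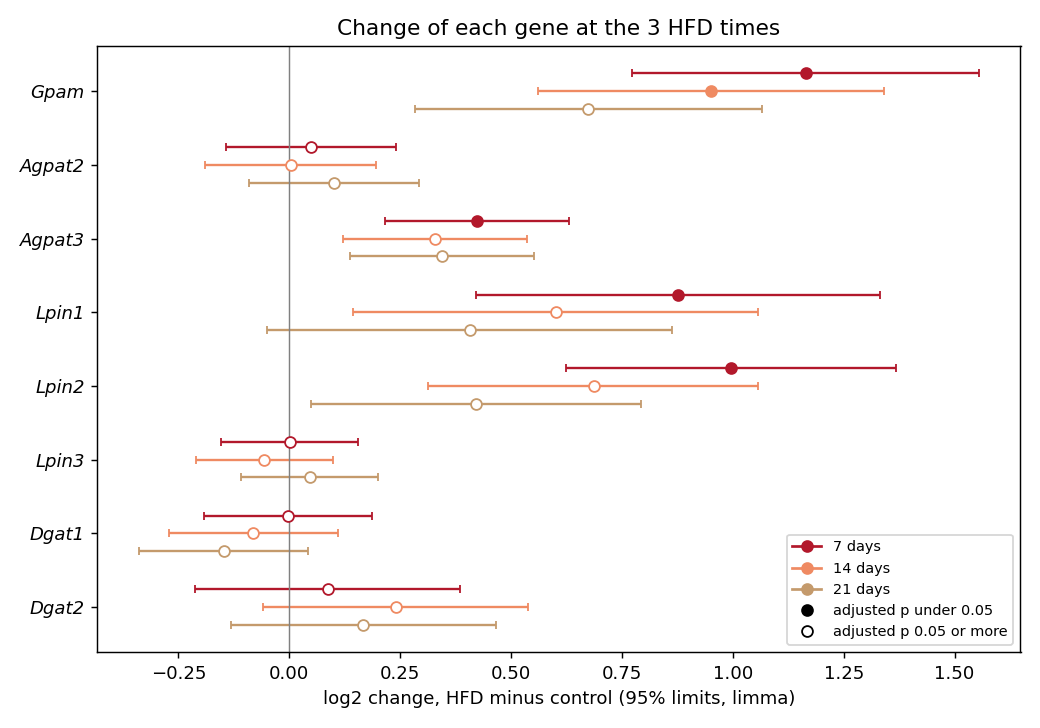
The log2 change of each gene against controls (horizontal axis) at 7, 14 and 21 days with 95% limits from limma, one row of 3 bars per gene, filled points marking an adjusted p under 0.05 over all genes. The point estimates of Gpam, Lpin1 and Lpin2 stand highest at 7 days (1.16, 0.88 and 0.995) and lowest at 21 days (0.67, 0.41 and 0.42), and those of Agpat2, Lpin3 and Dgat1 lie within 0.15 of 0 at all 3 times.

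Whether the 8 genes differed between HFD times was tested directly. For Gpam, Lpin1 and Lpin2 the estimates stepped down with time, but 0 of the 8 genes passed in limma in any pair of times (0% of all genes passed at 14 against 7 days, 0.00556% at 21 against 7 days and 0% at 21 against 14 days). At an unadjusted p under 0.05, 2 of the 8 were lower at 21 than at 7 days: Lpin2 (log2 change -0.57, 95% interval -1.01 to -0.14, limma adjusted p = 0.613) and Gpam (-0.49, -0.95 to -0.03, limma adjusted p = 0.683). Lpin1 stood at -0.47 (-1.01 to 0.07, limma adjusted p = 0.706). These estimates were not the same in the number sets. At 21 against 7 days they were -1.04 for Lpin2, -0.75 for Gpam and -0.78 for Lpin1 within arrays numbered 1 to 4. Within those numbered 5 to 8 they were -0.11, -0.23 and -0.15, and none passed in either set (limma adjusted p at least 0.0925). Whether the sets differ in this step was not tested. For comparison, 7.13% of all genes had such a p at 21 against 7 days. None of the 8 reached it at 14 against 7 days (2.51% of all genes did) or at 21 against 14 days (3.97%). In the limma F test over the 3 times, which called 0.00556% of all genes, the 8 genes had adjusted p-values of 1, and Lpin2 alone had an unadjusted p under 0.05 (0.0386). A call at 7 days beside none at 21 days is therefore not shown to be a difference between those times.

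Other genes of glycerolipid synthesis did not pass. Of 14 further genes of glycerol-3-phosphate supply, acylation and phosphatidate dephosphorylation, 11 were measured, and 0 were higher or lower at any HFD time in limma (1 at an unadjusted p under 0.05 at each time). Over all genes, such a p in either direction was had by 9.28% at 7 days, 1079 of 17989 at 14 days and 6.66% at 21 days, which is the background for each unadjusted count of the lists. Their median log2 change was 0.04 at 7 days, 0.07 at 14 days and -0.04 at 21 days. The acyltransferases that share the reaction of Gpam gave log2 changes at 7 days of -0.115 for Gpat2 (limma adjusted p = 0.738), 0.15 for Gpat3 (limma adjusted p = 0.667) and -0.12 for Gpat4 (limma adjusted p = 0.773). Among the forms measured, the call at this step was thus that of Gpam. Gpd1, which makes glycerol-3-phosphate, came nearest, with a log2 change of 0.45 at 7 days (limma adjusted p = 0.0751). The Gpat genes and Gpd1 were chosen as examples after their values were seen. Neither gene of the phosphatase complex that activates lipins, Ctdnep1 and Cnep1r1, passed (log2 changes at 7 days of 0.21 and 0.12). Of 16 measured genes that lead phosphatidate or diacylglycerol into phospholipids, 0 passed at any time (4 at an unadjusted p under 0.05 at 7 days, 0 at 14 days and 3 at 21 days), and their log2 changes at 7 days lay between -0.05 and 0.28 (median 0.13).

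Genes around the relay gave calls at its entry and its exit. Of 8 measured genes of fatty acid synthesis and activation, 2 were higher at 7 days, Acaca, the acetyl-CoA carboxylase (log2 change 0.98, limma adjusted p = 0.00485), and the acyl-CoA synthetase gene Acsl5 (0.41, limma adjusted p = 0.0456), and 0 passed at 14 or 21 days. At an unadjusted p under 0.05, 3 were higher at 14 days, and 2 were higher and 1 lower at 21 days. The Acaca call was lost with HFD arrays numbered 5 to 8 (0.78, limma adjusted p = 0.378). The Acsl5 call lay at the threshold and was lost when any of many single arrays was left out (limma adjusted p up to 0.124). Fasn, fatty acid synthase, had a log2 change of 1.08 at 7 days and did not pass (limma adjusted p = 0.0686). Of 12 measured genes of droplet coating, droplet formation and lipoprotein assembly, 2 rose at each HFD time. Plin2, which coats lipid droplets, averaged 10.40 ± 0.18 at 7 days, 10.06 ± 0.19 at 14 days and 10.01 ± 0.32 at 21 days (SD, n = 8 each) and 9.34 ± 0.20 in controls (n = 18). The 8 arrays at 7 days and the 8 at 14 days all lay above every control, which held for 0.228% and 0.0778% of all genes and for 0 of the 8 genes of triglyceride assembly. Fitm1, which takes part in droplet formation, had log2 changes of 0.92, 0.61 and 0.75 at 7, 14 and 21 days (limma adjusted p-values 8.1e-06, 0.0111 and 0.000516), and the call at 14 days was lost without the 14-day array numbered 1 (limma adjusted p = 0.0627).

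Of 10 measured genes of triglyceride hydrolysis, 3 rose at 7 days, 1 at 14 days and 2 at 21 days, and 0 were lower at any time. Mgll, the monoacylglycerol lipase, rose at every time (log2 change 1.05, 0.93 and 0.80 at 7, 14 and 21 days, limma adjusted p = 3.89e-08, 1.44e-06 and 3.41e-05). Pnpla3, a patatin-like lipase of the droplet, rose at 7 days (0.998, limma adjusted p = 0.00253). Its change was 0.54 with HFD arrays 1 to 4 (limma adjusted p = 0.0898) and 1.46 with those numbered 5 to 8, and the call was also lost with controls 10 to 18 (limma adjusted p = 0.0764). G0s2, an inhibitor of adipose triglyceride lipase, rose at 7 days (0.74, limma adjusted p = 0.0249) and at 21 days (0.94, limma adjusted p = 0.00269). Its 7-day call was lost without the 7-day array numbered 1, 3, 4 or 7 (limma adjusted p between 0.059 and 0.0792). Its 21-day change was 1.37 with HFD arrays 1 to 4 and 0.51 with those numbered 5 to 8 (limma adjusted p = 0.239), and the call was also lost with controls 1 to 9 (limma adjusted p = 0.0639). Genes of lipases and the gene of a lipase inhibitor were thus both among those called. Among 11 measured transcription factors and coactivators of lipid genes, 0 passed at 21 days (1 higher and 1 lower at an unadjusted p under 0.05). At 7 and 14 days 1 rose, Ppara (log2 change 0.66 at 7 days, limma adjusted p = 0.00265, and 0.55 at 14 days, limma adjusted p = 0.036). Its 7-day call was lost with HFD arrays 5 to 8 (0.52, limma adjusted p = 0.246) and with controls 10 to 18 (0.56, limma adjusted p = 0.0819). Its 14-day call was lost without the 14-day array numbered 1, 2, 5, 7 or 8, or the control numbered 1, 2, 3, 8, 10 or 14 (limma adjusted p up to 0.143). Srebf1, the gene of SREBP-1c, had log2 changes of 0.13, 0.32 and 0.26 at 7, 14 and 21 days and passed at none of them (limma adjusted p at least 0.904). For scale, 5 of 6 measured genes known as PPAR-alpha targets rose at each time, Vnn1 among them with a log2 change of 3.02 at 7 days.

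**Figure D3:**
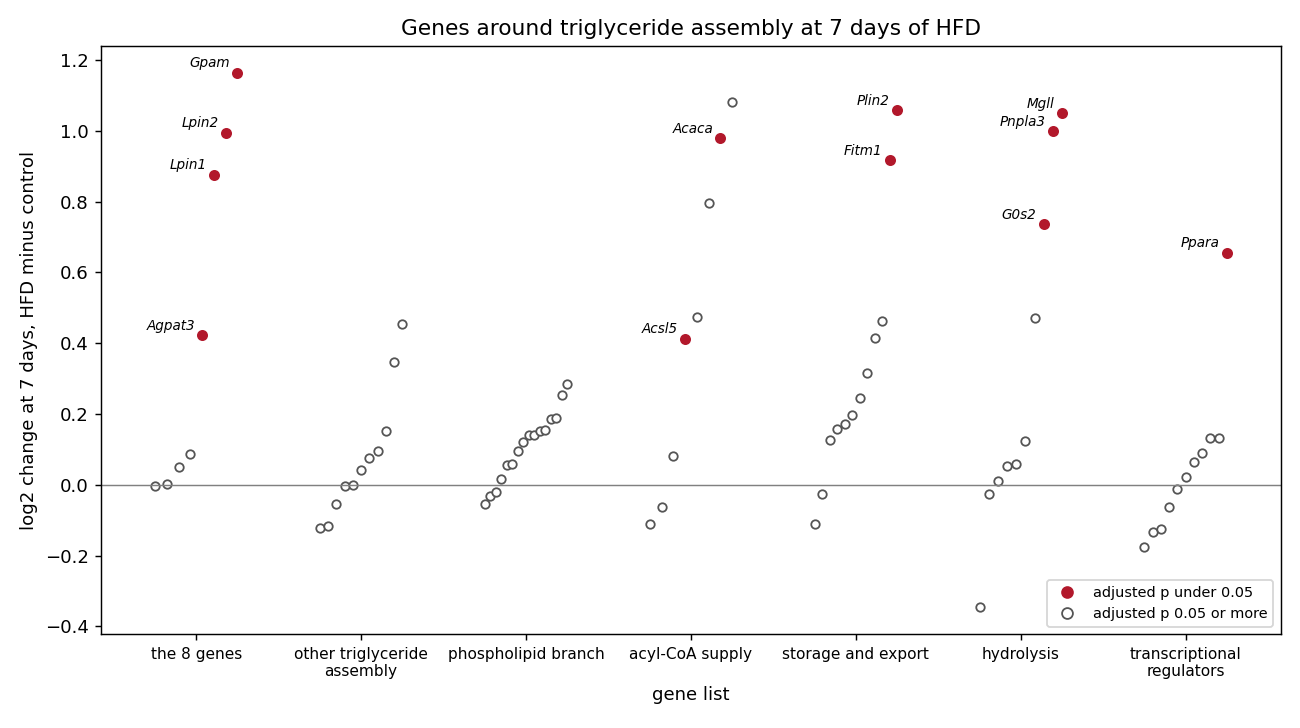
The log2 change at 7 days of HFD against controls (vertical axis) for the 8 genes of triglyceride assembly and for 6 lists of genes around them (horizontal axis), each point a gene, filled where the limma adjusted p over all genes was under 0.05. Filled points are 4 of 8 in the assembly group, 0 of 11 among other assembly genes, 0 of 16 in the phospholipid branch, 2 of 8 in acyl-CoA supply, 2 of 12 in storage and export, 3 of 10 in hydrolysis and 1 of 11 among regulators. The 8 genes and the lists were chosen with earlier results of these data known, so the counts are a description.

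Some macrophage genes were also higher at 7 days. Of 11 measured Kupffer cell and macrophage markers, 3 were higher at 7 days (Cd68, log2 change 0.44, C1qc, 0.46, and Vsig4, 0.64) and 0 at 14 or 21 days in limma (7, 3 and 0 at an unadjusted p under 0.05 at 7, 14 and 21 days, beside 9.28%, 1079 of 17989 and 6.66% of all genes). The mean of the 11 ran from 5.51 to 5.90 at 7 days, from 5.32 to 5.75 at 14 days, from 5.04 to 5.63 at 21 days and from 5.004 to 5.67 in controls. Their part in the rise of Gpam, Agpat3, Lpin1 and Lpin2 was not tested. Within groups, the deviations of those 4 genes from their group mean had Pearson correlations of -0.11, 0.18, -0.11 and 0.25 with the deviation of this marker mean (42 arrays, adjusted permutation p from 0.285 to 0.564 over 32 pairs, 100000 permutations). Within sets of arrays the values were 0.54, 0.62, 0.63 and 0.53 in the 12 HFD arrays numbered 1 to 4, -0.14, 0.11, 0.10 and 0.35 in the 12 numbered 5 to 8, and -0.23, 0.10, -0.35 and -0.08 in the 18 controls, given as a description. The value was positive in all 3 sets for Agpat3 and differed in sign between sets for the other 3 genes.

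The genes were then compared with each other inside the groups, using each array's deviation from its group mean, which removes the diet effect. Of 28 pairs of genes, 11 had an adjusted p under 0.05 (Pearson's r over 42 arrays, 100000 permutations, Benjamini-Hochberg over the 28 pairs), 10 of them positive and 1 negative. The share of all gene pairs that pass this test was not computed, so the count is a description. Differences between the number sets and in acinar level remain in these deviations, and their part in the correlations was not tested. Arrays that were high in Gpam for their group tended to be high in Lpin1 (r = 0.73, Spearman's rho = 0.79), Dgat2 (0.63, 0.55), Agpat3 (0.54, 0.53) and Lpin2 (0.53, 0.56). The pairs Agpat3 and Dgat2 (r = 0.76, rho = 0.76), Lpin1 and Dgat2 (0.72, 0.70) and Lpin1 and Lpin2 (0.69, 0.67) were also positive. The adjusted permutation p was 5.6e-05 for the pairs of Gpam with Lpin1 and with Dgat2 and for these 3 pairs, from an unadjusted p of 1e-05, the smallest that this number of permutations can give. Dgat2, which did not pass at any HFD time against controls, therefore varied within groups in step with Gpam, Agpat3 and Lpin1, which were called at 7 days. The pair of Dgat2 with Lpin2, also called at 7 days, did not pass (r = 0.27, adjusted permutation p = 0.181).

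Without the 2 arrays farthest from the median of the first gene of a pair, r was 0.69 for Gpam and Lpin1, 0.72 for Agpat3 and Dgat2, 0.67 for Lpin1 and Dgat2 and 0.67 for Lpin1 and Lpin2. Arrays far out for the second gene only were kept. Gpam and Lpin1 had r = 0.81 in the 12 HFD arrays numbered 1 to 4, 0.61 in the 12 numbered 5 to 8 and 0.76 in the 18 controls. For Agpat3 and Dgat2 the values in these sets were 0.66, 0.92 and 0.72, for Lpin1 and Lpin2 0.87, 0.71 and 0.77, and for Lpin1 and Dgat2 0.43, 0.80 and 0.74, so these relations were positive in each set. Agpat2 and Lpin2 ran against each other (r = -0.52, rho = -0.52, adjusted permutation p = 0.0021), with r of -0.38 and -0.47 in the HFD sets and of -0.56 in controls. The positive relations of Agpat3 with Agpat2 (r = 0.40) and with Dgat1 (r = 0.37) did not pass by Spearman's rho (adjusted permutation p = 0.13 and 0.061). Lpin3 had no pair that passed, with r between -0.12 and 0.18.

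**Figure D4:**
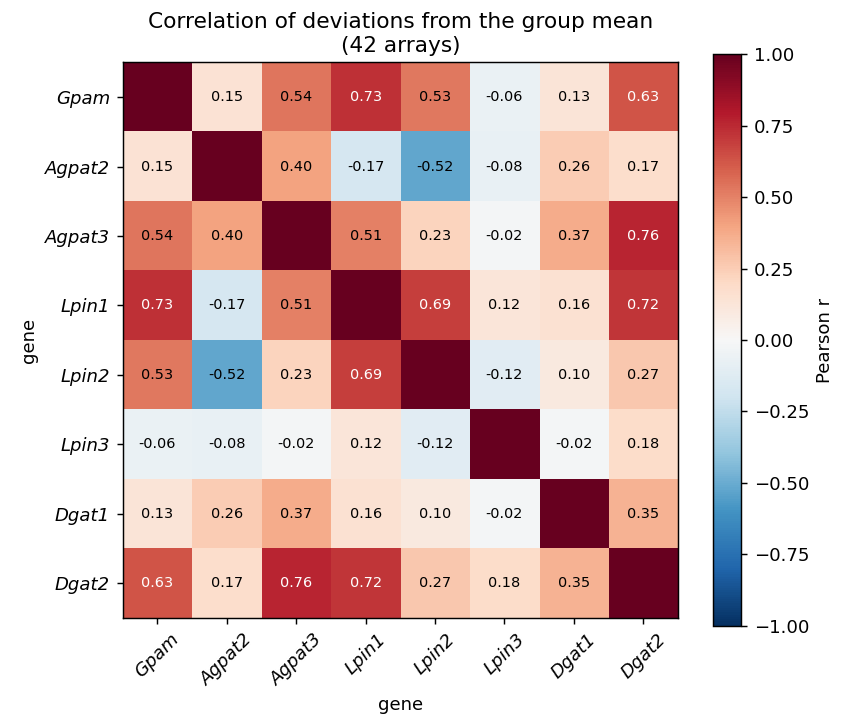
Pearson's r between the 8 genes (both axes) over the deviations of 42 arrays from their group means, from -1 in blue to 1 in red. Gpam, Agpat3, Lpin1 and Dgat2 form positive pairs from 0.51 to 0.76, Agpat2 and Lpin2 stand at -0.52, and the row of Lpin3 lies between -0.12 and 0.18.

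Marker means of other cell types were set beside the same deviations in 32 pairs of a gene with a marker value. The mean of the acinar genes ran against Lpin2 (r = -0.49, rho = -0.49, adjusted permutation p = 0.0277), with -0.62 in HFD arrays numbered 1 to 4, -0.37 in those numbered 5 to 8 and -0.63 in controls. Its r was -0.39 with Gpam and -0.37 with Lpin1, which did not pass (adjusted permutation p = 0.0881 for both). With the acinar mean as a covariate in limma, the 7-day log2 change was 1.24 for Gpam, 0.45 for Agpat3, 0.97 for Lpin1 and 1.09 for Lpin2, and each of these calls held. The 14-day change of Lpin2 became 0.76 and passed in that fit (limma adjusted p = 0.00901). Dgat1 ran with the Kupffer mean by Pearson's r (0.47, adjusted permutation p = 0.0277) but did not pass by Spearman's rho (0.29, adjusted permutation p = 0.264).

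For each of the 8 genes the 3 genes with the most similar deviations over the 42 arrays were found, as a description and with no test. Those of Gpam were the fatty acid synthesis genes Acaca (r = 0.94), Scd1, the stearoyl-CoA desaturase (0.91), and Fasn (0.91), and in each array set their r was at least 0.83. Those of Dgat2 were Got2, the mitochondrial aspartate aminotransferase (0.93), Acad10 (0.93) and Pcx, pyruvate carboxylase (0.93). Those of Agpat3 were H13 (0.90), F12, coagulation factor XII (0.88), and Glmp (0.86). Those of Lpin1 were Mtss1 (0.86), the amino acid transporter gene Slc38a3 (0.82) and Ptprj (0.81), and those of Lpin2 were Gys2, the liver glycogen synthase (0.81), Dclre1a (0.78) and Mia3 (0.77). Agpat2 was nearest to the fatty acid elongase gene Elovl3 (0.78), Smagp (0.76) and Dexi (0.74), and Dgat1 to Tmem185a (0.69), Nf2 (0.67) and the droplet coat gene Plin3 (0.67). Predicted genes, small RNAs and olfactory and vomeronasal receptor genes were passed over, and among the genes kept Lpin3 had none above 0.54, the r of Sorl1. All arrays share 1 normalization, and the genes were ranked over 17989, so high values of r were sought out by the ranking.

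**Figure D5:**
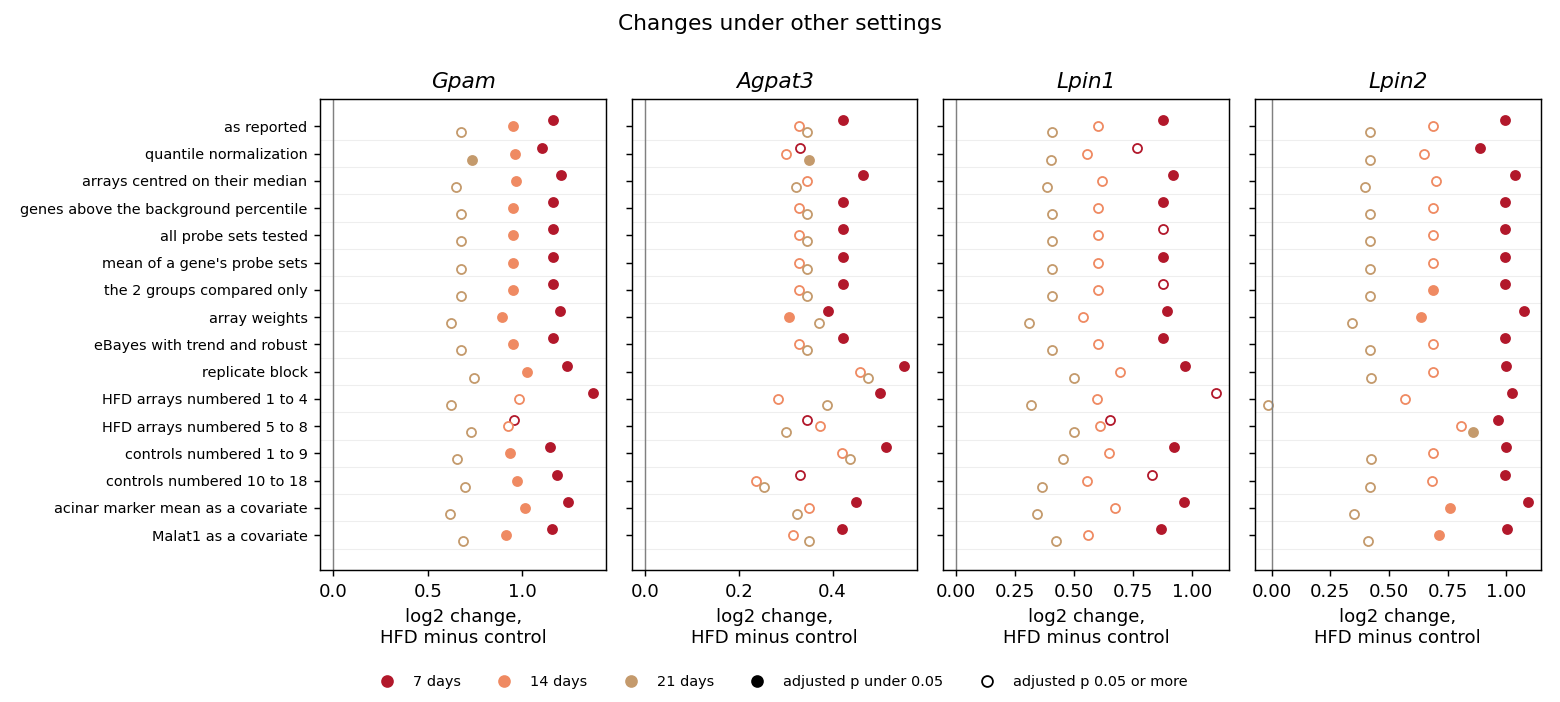
The log2 change against controls (horizontal axis) of Gpam, Agpat3, Lpin1 and Lpin2 at 7, 14 and 21 days as reported (top row) and under 15 other settings (rows), filled where the limma adjusted p was under 0.05. The 7-day points of Lpin2 are filled in all 16 rows and those of Gpam in all but the arrays numbered 5 to 8, while those of Lpin1 are open in 6 rows, and the only point left of 0 is Lpin2 at 21 days with the arrays numbered 1 to 4 (-0.02).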

How the data were processed

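Liver RNA was labelled for Affymetrix whole-transcript arrays, per the labels' protocols after miRNeasy extraction with DNase treatment. The authors deposited log2 values made by RMA (background correction, normalization and probe summary) in Expression Console 1.1, per the submitters' processing notes. The sources used here name no build for the annotation of the array. Of 32624 probe sets, 19559 had 1 gene symbol in the platform annotation, 1469 several and 11596 none, and probe sets with 1 symbol were used. Entrez identifiers of 19475 matched a RefSeq table and 0 symbols changed. The brightest probe set stood for each of 841 genes with several, giving 17989 genes with no filter on dim ones. One probe set that had values on controls 1 to 9 only, and none on the other 33 arrays, was left out.

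All 42 arrays entered 1 limma fit (limma 3.58.1, R 4.3.3, lmFit and eBayes) with 4 groups and no block, so the groups shared 1 variance for each gene. Tests were 2-sided, with Benjamini-Hochberg adjustment over all genes within a comparison and a threshold of 0.05. The fit was tested on simulated data. Correlations used deviations from group means. Arrays carry no read depth, so their number and the signal over background limit precision (median SE of a log2 difference 0.09 against controls, 0.11 between HFD times). The 8 genes and all lists were chosen with earlier results of these data known. Named genes are the 8, up to 4 called genes per list and comparison, and the 3 most similar genes of each of the 8, passing over predicted genes and small RNAs. Others are named as examples, chosen after their values were seen. Alternatives were quantile normalization, median centring, a filter on dim genes, all probe sets, the mean of probe sets, the 2 compared groups alone, array weights, a trended and robust prior, a replicate block, subsets by array number, covariates, and each array left out in turn. Promoter sequences are those of RefSeq.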

Additional observations from a re-analysis of the deposited data

Results flagged for a closer look

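In each HFD group of 8 arrays, a highest or lowest value far from the rest was looked for in each of the 8 genes (24 groups, where chance gives about 1 in 20). Agpat2 was 9.96 on the 7-day array numbered 4, with the other 7 arrays between 9.28 and 9.55. Without this array the 7-day log2 change of Agpat2 was -0.01 (limma adjusted p = 0.975) in place of 0.05. Lpin1 was 5.80 on the 7-day array numbered 7, with the other 7 arrays between 6.71 and 7.37. Without this array the 7-day log2 change of Lpin1 was 1.03 (limma adjusted p = 0.00547) in place of 0.88.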

How the results depend on the processing

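With 1 array left out in turn, between 2 and 4 of the 8 genes were higher at 7 days, 1 or 2 at 14 days and 0 or 1 at 21 days, and 0 were lower. Over the other settings, 4 genes higher at 7 days became 2 with quantile normalization or with controls numbered 10 to 18, and 1 with HFD arrays numbered 5 to 8. Lpin1 alone lost its 7-day call with all probe sets tested, with the compared groups alone and with HFD arrays numbered 1 to 4. The 1 gene at 14 days became 2 with the compared groups alone, the acinar mean or Malat1 as a covariate, 3 with array weights, and 0 with arrays 1 to 4 or 5 to 8. The 0 genes at 21 days became 2 with quantile normalization (Gpam and Agpat3) and 1 with arrays 5 to 8. Calls over all genes numbered 251 at 7 days (605 with array weights, 144 with arrays 5 to 8), 120 at 14 days (193 with weights, 77 with the replicate block, 69 with arrays 1 to 4, 58 with 5 to 8, 61 with controls 10 to 18), 126 at 21 days (903 with arrays 1 to 4, 349 with 5 to 8, 71 with controls 10 to 18), 0 at 14 against 7 days (3 with weights), 1 at 21 against 7 days (0 with quantile normalization, all probe sets, the compared groups alone, weights, the replicate block and either number set) and 1 in the F test (3 with weights, 0 with quantile normalization, all probe sets, the replicate block and either number set). The cause of these shifts was not tested. Subsets hold fewer arrays.

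Reversed signs were seen in these log2 changes, each with an adjusted p over 0.5. At 7 days Agpat2 was -0.03 with quantile normalization. Dgat1 was 0.039 with median centring, 0.041 with controls 1 to 9, 0.085 with the replicate block, 0.01 with arrays 5 to 8, 0.002 with the acinar covariate and 0.001 with Malat1. Lpin3 was -0.05 with the replicate block, -0.11 with arrays 5 to 8, -0.045 with controls 1 to 9, -0.01 with the acinar covariate and -0.001 with Malat1. Dgat2 was -0.095 with arrays 5 to 8 and -0.055 with controls 10 to 18. At 14 days Agpat2 was -0.016 with quantile normalization, -0.017 with arrays 5 to 8, -0.008 with controls 10 to 18, -0.009 with the acinar covariate and -0.006 with Malat1, Dgat1 was 0.006 with the replicate block and 0.007 with arrays 5 to 8, and Lpin3 was 0.02 with arrays 1 to 4. At 21 days Lpin3 was -0.006 with the replicate block and -0.001 with controls 1 to 9, Lpin2 was -0.016 with arrays 1 to 4, and Agpat2 was -0.022 and Dgat1 0.006 with arrays 5 to 8. At 14 against 7 days Agpat2 was 0.014 (quantile), Dgat2 -0.031 (arrays 1 to 4) and Agpat3 0.029 (5 to 8). At 21 against 7 days Agpat3 was 0.019 (quantile), Agpat2 -0.013 (centring) and -0.029 (5 to 8), and Lpin3 -0.021 (centring), -0.015 (weights) and -0.079 (1 to 4). At 21 against 14 days Agpat3 was -0.024 (centring), -0.073 (5 to 8) and -0.025 (acinar), Dgat2 0.077 (1 to 4), Agpat2 -0.005 and Lpin2 0.053 (5 to 8). With 1 array left out, the ranges that crossed 0 were, at 7 days, -0.014 to 0.084 for Agpat2, -0.051 to 0.045 for Dgat1 and -0.041 to 0.048 for Lpin3, at 14 days -0.028 to 0.034 for Agpat2, at 14 against 7 days -0.081 to 0.017 for Agpat2, at 21 against 7 days -0.02 to 0.115 for Agpat2, -0.009 to 0.205 for Dgat2 and -0.002 to 0.087 for Lpin3, and at 21 against 14 days -0.06 to 0.094 for Agpat3 and -0.139 to 0.052 for Dgat2.

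Replicate numbers are shared across groups, but same-numbered arrays did not deviate together throughout: over 48 pairs the median correlation was 0.08 (-0.37 to 0.52), and 22 pairs exceeded 0.1. Among HFD groups alone it was 0.205 over 24 such pairs (17 over 0.1), 0.186 over 72 pairs of other numbers within 1 to 4 or within 5 to 8, and -0.167 over 96 pairs across these sets (6 over 0.1), so same-numbered HFD arrays were about as alike as others of their set. With the replicate block, 4, 1 and 0 of the 8 genes were higher at 7, 14 and 21 days, as without it. Numbers above 8 occur among controls alone, 1 array each, so that fit compares the HFD arrays with the controls numbered 1 to 8. Among the other genes, calls were lost under the block for Acsl5 (adjusted p = 0.188) and G0s2 (0.158) at 7 days, Fitm1 (0.0544), Ppara (0.0875) and Cd36 (0.29) at 14 days, and G0s2 (0.077) at 21 days.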

Other observations

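Arrays numbered 5 to 8 were set against those numbered 1 to 4 over the 24 HFD arrays, with time in the fit, a comparison chosen with its values in view; 22.7% of all genes passed in limma. Of the 8 genes 0 passed, with Lpin2 nearest (log2 difference 0.35, limma adjusted p = 0.105). Genes around the relay that passed included Ctdnep1, a phosphatase that acts on lipins (-0.83, limma adjusted p = 8.7e-08), Srebf1 (-0.74, limma adjusted p = 0.000988), Mlxipl, the gene of the carbohydrate-responsive factor ChREBP (0.61, limma adjusted p = 0.000139), Gpd1 (-0.53, limma adjusted p = 0.000132), Agpat1 (-0.27, limma adjusted p = 0.0162), and Cept1 (0.58, limma adjusted p = 4.92e-05) and Chpt1 (0.46, limma adjusted p = 0.000923), which turn diacylglycerol into phospholipids. These 7 were chosen after their values were seen. Malat1 had the largest difference among the genes on the lists (2.48, limma adjusted p = 4.74e-11). The values describe sets of arrays whose numbers the labels do not explain.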
